A study of Arabidopsis thaliana with 8 samples.

Results

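Glucosinolates are sulfur-rich defence compounds of the cabbage order, built in Arabidopsis mainly from methionine (aliphatic glucosinolates) or tryptophan (indolic glucosinolates). MYB factors switch on the 2 branches, chain elongation lengthens methionine before the core structure is made, side chain enzymes modify the product, and carriers move it between organs. On wounding, myrosinases split glucosinolates into toxic products, and specifier proteins set which products form. The genes described here are 42 loci of this pathway, taken by a list of locus names that matches the probe names of the array. They comprise 26 loci of the aliphatic branch, 9 of the indolic branch and 7 used by both. Of the 42, 41 were measured well enough to be tested among 24599 genes in all.

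The study compared whole seedlings of wild type Col-0 with seedlings of the voz1 voz2 double mutant in the same background, 4 one-colour arrays of each genotype. VOZ1 and VOZ2 are plant transcription factors with a known role in promoting flowering. All seedlings were 14 days old and untreated, and were grown on half-strength MS agar at 22 °C under days of 16 h light and 8 h dark. The sources used here do not describe the mutant alleles or the number of seedlings per sample. No label says that replicates were grown apart, so the spread behind every p-value may be technical.

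In the arrays labelled as mutant, VOZ2 fell by 5.74 and VOZ1 by 1.5 on the log2 scale (limma adjusted p = 0.00010 and 0.0015). Between 60.4% and 70.3% of probes per array were well above background. The lowest share was that of wild type replicate 3, which also had the lowest 75th percentile of log2 signal (9.50). The arrays lay on 2 slides, each with 2 arrays of each genotype, replicates 1 and 3 on slide 1 and replicates 2 and 4 on slide 2. Levels are log2 signals minus the 75th percentile of the array, so 0 is a bright signal and each step of 1 is a doubling. A difference is the mutant mean minus the wild type mean on that scale, and a gene is said to have risen or fallen only at a limma adjusted p under 0.05 over all genes tested. Levels of different genes come from different probes and are not compared with each other.

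In the mutant 3 of the 41 glucosinolate genes rose and 0 fell in limma. They were MAM3 and IPMI2 of methionine chain elongation and the myrosinase gene TGG2. Over all genes tested 4.44% were called, 2.72% as higher and 1.72% as lower. At an unadjusted p under 0.05 there were 9 of 41 members, against 23.6% of all genes, so that count is no larger than the background. In 7 members the 4 mutant values all lay above the 4 wild type values, and in 0 members they all lay below, against 8.46% and 7.85% of all genes. Most members that did not pass also had positive differences. Of the 41 members 35 had differences above 0, with a median of 0.30, while 47.2% of all genes had differences above 0, with a median of -0.03. Relative to that median the members' median was 0.33, and 0.17 without wild type replicate 3.

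**Figure D1:**
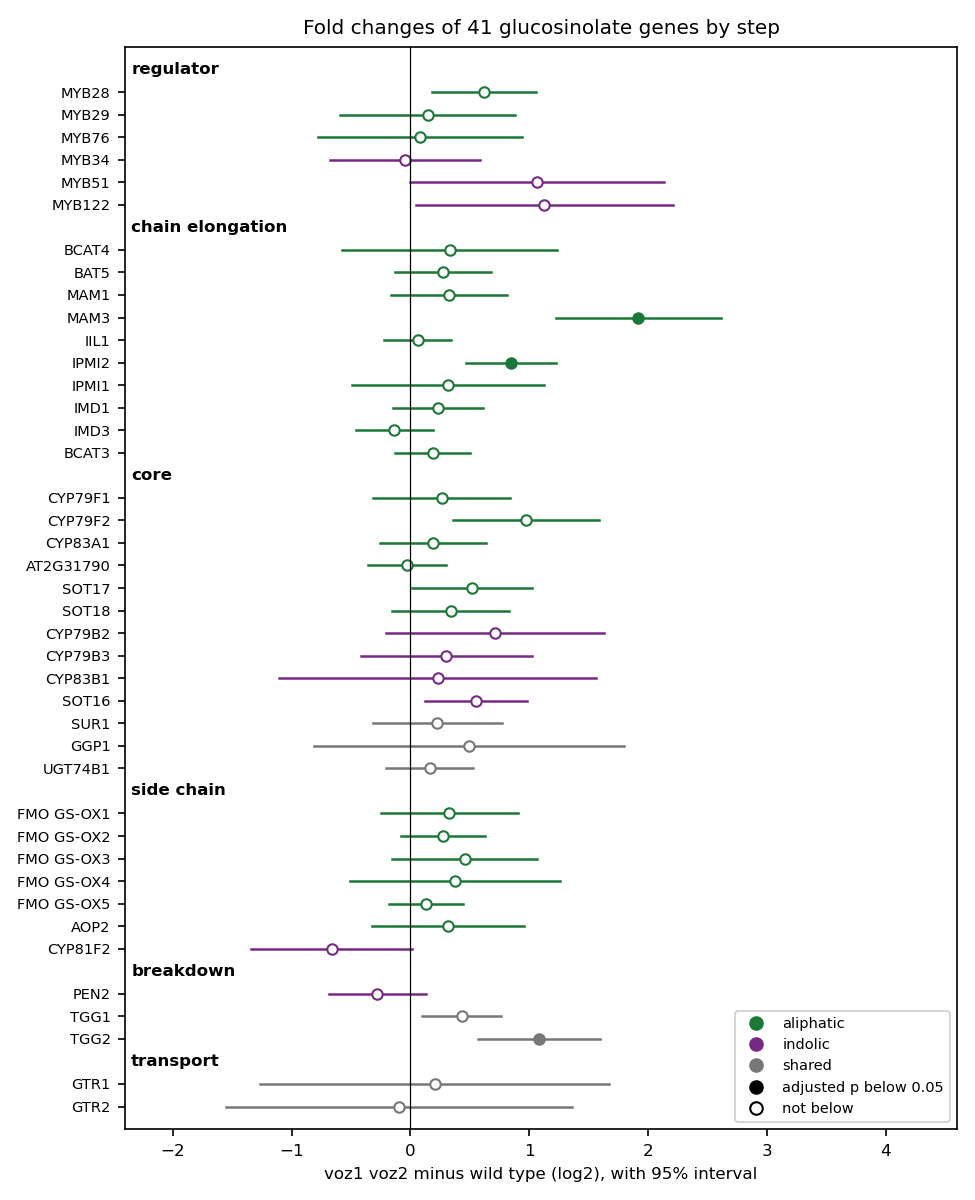
Difference between voz1 voz2 and wild type (log2, x axis) of the 41 tested members grouped by step, with 95% intervals from limma, coloured by branch. Filled points mark MAM3, IPMI2 and TGG2, the 3 members past an adjusted p of 0.05, and 35 of the points lie right of 0.

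None of the 6 MYB regulators passed. MYB28 (AT5G61420), the main activator of the aliphatic branch, stood at -1.41, -1.49, -2.12 and -1.57 in wild type replicates 1 to 4 and at -1.21, -0.81, -1.16 and -0.93 in the mutant ones. All 4 mutant arrays lay above all wild type arrays, with a difference of 0.62 (SE 0.19, adjusted p = 0.102, or 0.042 when slide was a block). With normexp background correction and quantile scaling it was 0.48 with an adjusted p of 0.034, and 4 members rose in all. MYB29 (AT5G07690) and MYB76 (AT5G07700), neighbours in the genome that act beside MYB28, had 0.15 (SE 0.32, adjusted p = 0.825) and 0.080 (SE 0.37, adjusted p = 0.925), with overlapping groups. The value of MYB76 was slightly below 0 under quantile and median scaling and both normexp settings.

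Of the indolic regulators, MYB34 (AT5G60890) differed little in the mean. Its values were 2.29, 2.03, 2.41 and 1.22 in wild type and 2.17, 1.87, 2.14 and 1.61 in the mutant, a difference of -0.045 with a 95% interval of -0.68 to 0.59. MYB51 (AT1G18570) was at -1.98, -1.74, -3.93 and -2.47 in wild type and -1.19, -1.04, -1.97 and -1.67 in the mutant. The mutant was higher in the mean by 1.07 (SE 0.47, adjusted p = 0.213, or 0.0498 when blocked by replicate number), but the groups overlapped and wild type replicate 3 was low. Without that array the difference was 0.60. MYB122 (AT1G74080), a dim probe, had -5.14, -4.28, -5.39 and -6.47 in wild type and -4.33, -4.37, -3.33 and -4.74 in the mutant. These groups overlapped too, with a difference of 1.13 (SE 0.47, adjusted p = 0.196). It was 0.75 without wild type replicate 4, and 0.39 and 0.23 with normexp background correction under quantile and 75th percentile scaling.

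Chain elongation held the clearest change. MAM3 (AT5G23020) encodes a methylthioalkylmalate synthase that carries out repeated elongation rounds and is needed for the long-chain aliphatic glucosinolates. Its level was 1.97, 1.78, 1.13 and 0.91 on the wild type arrays and 3.69, 3.28, 3.70 and 2.80 on the mutant arrays. The groups were separated by a wide gap, and the limma adjusted p was 0.014. MAM3, listed in RefSeq as IMS2, rose 3.78-fold, a log2 difference of 1.92 (SE 0.30) between means of 1.45 ± 0.51 and 3.37 ± 0.43 (SD, n = 4 arrays). The rise was 2.14 on slide 1 and 1.69 on slide 2, and the call held whichever array was left out (adjusted p 0.019 to 0.048). It was lost on either slide alone (adjusted p 0.120 and 0.234), with normexp background correction and the 75th percentile (0.052) and in the authors' deposited values (0.264), settings under which IPMI2, TGG2, ESP and AT1G04770 also missed the threshold.

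MAM1 (AT5G23010), the neighbouring synthase gene whose product serves mainly short chains, did not pass. Its values were 4.23, 3.75, 3.46 and 3.81 in wild type and 4.41, 4.03, 3.77 and 4.35 in the mutant, a difference of 0.32 (SE 0.21, 95% interval -0.17 to 0.81, adjusted p = 0.399). Within each array, MAM3 minus MAM1 was higher in the mutant by 1.59, with no overlap between the genotypes. The two-sided exact permutation p of that difference was 0.0286, the smallest that 4 against 4 arrays allow. Adjusted over the 8 pairs of neighbouring members tested it was 0.152, and at that smallest p a single pair could not have passed. Between same-numbered arrays the difference was 1.54, 1.23, 2.26 and 1.35. Those pairs are members of the same step at most 3 places apart in the RefSeq gene order, a rule chosen after the values were seen.

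IPMI2 (AT2G43100) encodes a small subunit of isopropylmalate isomerase, which works with the large subunit IIL1 (AT4G13430). Its level was 3.33, 3.08, 2.93 and 2.74 in wild type and 4.08, 3.77, 3.71 and 3.90 in the mutant. No mutant array reached down to the wild type range, and IPMI2 rose by 0.84 (SE 0.17, adjusted p = 0.031), or 1.79-fold. Its call was lost without any single array but wild type replicates 1 and 2 (adjusted p 0.065 to 0.088), and with median scaling (0.091) or no filter on dim probes (0.075). The large subunit gene IIL1 and the small subunit gene IPMI1 (AT3G58990) had 0.060 and 0.32 with no call. IPMI SSU1 (AT2G43090), a further small subunit gene that is not a member, had 0.067 (adjusted p = 0.835).

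The remaining elongation genes lay between -0.14 and 0.33. Those nearest to a call after the rise of MAM3 and IPMI2 were BAT5 (AT4G12030), which moves keto acids across the chloroplast envelope, MAM1 and the dehydrogenase gene IMD1 (AT5G14200). BAT5 was at 1.95, 1.38, 1.26 and 1.33 in wild type and 1.87, 1.72, 1.64 and 1.78 in the mutant, so that only wild type replicate 1 overlapped the mutant range (0.27, adjusted p = 0.386). IMD1 was at 3.95, 3.68, 3.39 and 3.50 in wild type and 3.87, 3.98, 3.64 and 3.96 in the mutant (0.23, adjusted p = 0.434). BCAT4 (AT3G19710), which starts elongation by deaminating methionine, had 0.33. IMD3 (AT1G31180) and BCAT3 (AT3G49680), which also serve leucine synthesis, had -0.14 and 0.19.

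**Figure D2:**
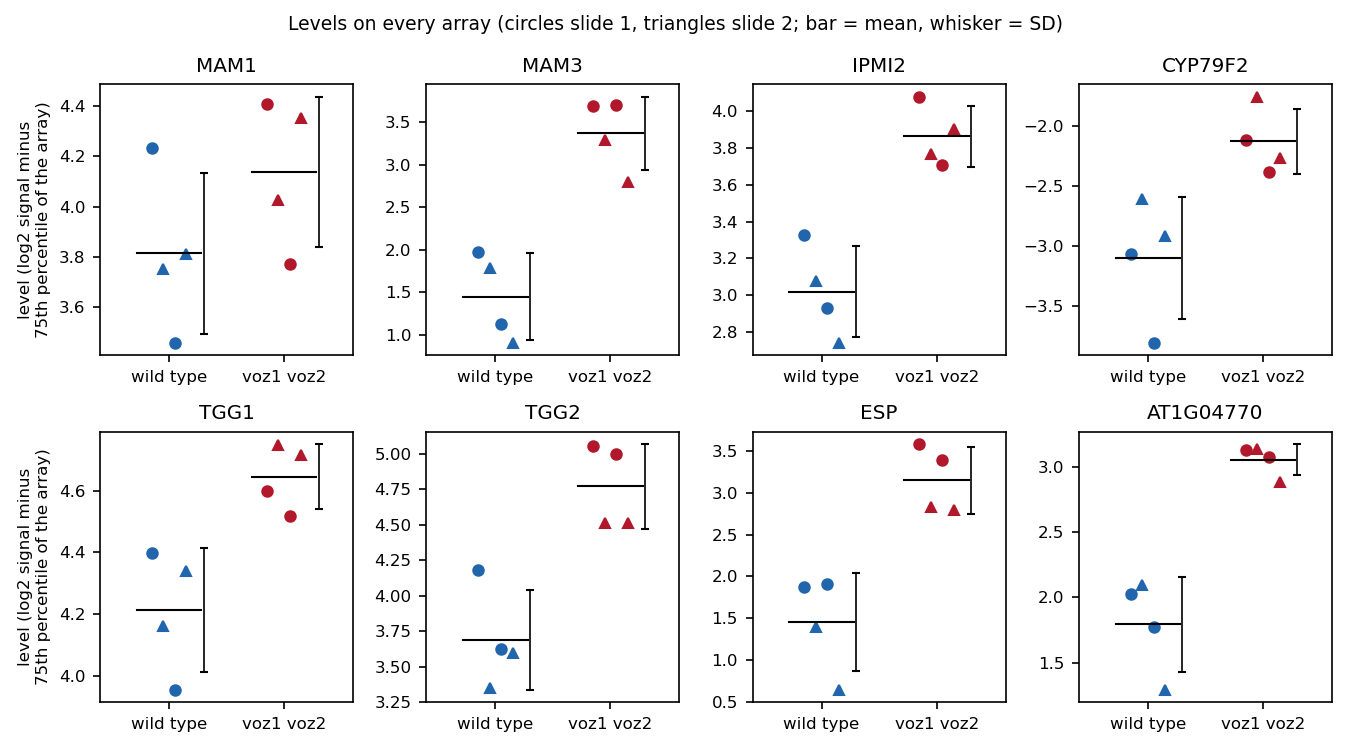
Level on each array (log2 signal minus the 75th percentile of the array, y axis, own range per panel) of 6 members and 2 other genes of the pathway, wild type in blue and voz1 voz2 in red, circles for slide 1 and triangles for slide 2, with mean and SD of 4 arrays. MAM3, IPMI2, TGG2, ESP and AT1G04770 rose with no overlap, CYP79F2 and TGG1 have no overlap without a call, and MAM1 overlaps.

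No gene of the core structure was called. The one nearest to it was CYP79F2 (AT1G16400), whose enzyme turns long-chain elongated methionines into aldoximes. Its values were -3.07, -2.61, -3.81 and -2.92 in wild type and -2.12, -1.76, -2.38 and -2.26 in the mutant. The mutant arrays all lay above the wild type arrays, with a difference of 0.97 (SE 0.27, adjusted p = 0.077, or 0.032 and 0.028 when blocked by slide and by replicate number). The neighbouring CYP79F1 (AT1G16410), which accepts short and long chains, had 0.26 (SE 0.25, adjusted p = 0.574). The difference between both genes was 0.71 (two-sided exact permutation p = 0.0571, 0.152 adjusted over the 8 pairs), and 0.95, 0.66, 1.06 and 0.18 between same-numbered arrays. CYP79F1 had another, dim probe, clearing background on 3 wild type and 4 mutant arrays, which was not the one tested. It was at -4.94, -5.77, -6.68 and -5.37 in wild type and -5.81, -5.25, -6.36 and -5.40 in the mutant, with overlap. The difference between both genes was taken only with the brighter probe.

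Among the sulfotransferases, which add the last sulfate of the core, SOT16 (AT1G74100) of the indolic branch was at 3.91, 3.88, 3.50 and 3.23 in wild type and 4.25, 4.37, 4.01 and 4.11 in the mutant. The ranges did not overlap (0.55, SE 0.19, adjusted p = 0.126, or 0.048 when blocked by replicate number). SOT17 (AT1G18590) of the aliphatic branch was at 2.33, 2.1, 1.40 and 1.69 in wild type and 2.43, 2.59, 2.15 and 2.42 in the mutant, overlapping through wild type replicate 1 (0.52, SE 0.22, adjusted p = 0.204). SOT18 (AT1G74090) had 0.34. CYP83A1 (AT4G13770), the aliphatic oxime-metabolising enzyme gene, had 0.19, and AT2G31790, which has no symbol in RefSeq, had -0.024. The tryptophan-converting CYP79B2 (AT4G39950) and CYP79B3 (AT2G22330) and the indolic CYP83B1 (AT4G31500) had 0.71, 0.30 and 0.23, and the genes serving both branches, the C-S lyase SUR1 (AT2G20610), the peptidase GGP1 (AT4G30530) and the glucosyltransferase UGT74B1 (AT1G24100), had 0.23, 0.49 and 0.16, none with a call.

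Side chain genes did not pass either. The 5 FMO GS-OX genes, whose enzymes oxidise the methylthio group of aliphatic glucosinolates, had differences from 0.13 to 0.46. FMO GS-OX3 (AT1G62560) was at 0.58, 0.17, -0.50 and 0.13 in wild type and 0.57, 0.80, 0.038 and 0.79 in the mutant (adjusted p = 0.338). FMO GS-OX2 (AT1G62540) was at -1.60, -1.5, -1.89 and -1.83 in wild type and -1.65, -1.51, -1.34 and -1.24 in the mutant (0.27, adjusted p = 0.322). Both overlapped between genotypes. AOP2 (AT4G03060), listed in RefSeq as a transcribed pseudogene in this accession, had 0.32, and AOP3 (AT4G03050) was not well above background on any array and was not tested.

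CYP81F2 (AT5G57220), which hydroxylates the indole ring in the path to defence-active indolic products, was the member with the lowest difference. It was at -0.89, -1.05, -1.51 and -1.01 in wild type and -1.52, -1.07, -2.24 and -2.29 in the mutant. The groups overlapped, and the difference of -0.66 (SE 0.30) did not pass (adjusted p = 0.222). PEN2 (AT2G44490), the atypical myrosinase acting on these products, was at 4.89, 4.55, 5.19 and 4.91 in wild type and 4.86, 4.34, 4.58 and 4.65 in the mutant (-0.28, SE 0.18, adjusted p = 0.387). Both members stood on the opposite side of 0 from the indolic core genes, none of them past the threshold.

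TGG1 (AT5G26000) and TGG2 (AT5G25980) encode the classical myrosinases of the shoot, stored in myrosin cells and guard cells. TGG2 was at 4.18, 3.35, 3.62 and 3.6 in wild type and 5.06, 4.51, 5.0 and 4.52 in the mutant. The mutant range lay wholly above the wild type range, and the limma adjusted p was 0.036. TGG2 rose 2.12-fold, a log2 difference of 1.08 (SE 0.22) between means of 3.69 ± 0.35 and 4.77 ± 0.30 (SD, n = 4 arrays). The call was lost without any single array but wild type replicate 1 (adjusted p 0.054 to 0.098), and with median scaling (0.096) or no filter on dim probes (0.076). TGG1 was at 4.40, 4.16, 3.95 and 4.34 in wild type and 4.6, 4.75, 4.52 and 4.71 in the mutant. Its groups did not overlap (0.43, SE 0.14, adjusted p = 0.124), and TGG2 minus TGG1 was higher in the mutant by 0.65 (two-sided exact permutation p = 0.0571, 0.152 adjusted over the 8 pairs). Between same-numbered arrays that difference was 0.68, 0.58, 0.81 and 0.54. Whether the probes of such near copies tell them apart was not tested, since probe sequences were not used here.

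Markers of guard cells and of their development were set beside these myrosinase genes. Among them only FAMA also bears on myrosin cells, so the list says little of those. Of the 9 markers 0 rose or fell in limma, also at an unadjusted p under 0.05, and all 9 had differences above 0, with a median of 0.27. In 2 of the 9 the mutant values all lay above the wild type values. FAMA, the factor that specifies guard cells and myrosin cells, had 0.11 (SE 0.14, adjusted p = 0.697). The mean level of the 9 genes ran from -1.76 to -1.20 in wild type and from -1.35 to -1.17 in the mutant, and every one was well above background on all arrays except SLAC1, which missed 1 wild type array. Of 15 root markers, all well above background on every array, 1 rose, WOX5, 6 had an unadjusted p under 0.05, 3 had no overlap, and 14 had differences above 0, with a median of 1.08. Over all genes 2.72% were called higher and 23.6% had an unadjusted p under 0.05 in limma. In 8.46% of all genes the mutant values all lay above the wild type values, and in 47.2% the difference was above 0. The mean root marker level ran from -3.69 to -1.44 in wild type and from -1.70 to -0.70 in the mutant, lowest in wild type replicate 4. Of 7 green tissue genes 0 passed limma (1 had an unadjusted p under 0.05), 6 had differences below 0 and the median was -0.32. In 1 of the 7, RBCS1A, the mutant values all lay below wild type, which had a value only in replicate 3. The mean green tissue level ran from 4.22 to 4.85 in wild type and from 3.79 to 4.58 in the mutant. RBCS1A was measured on 4 of 8 arrays and RCA and CA1 on 7 each, so these means cover unlike genes and are not compared. The lowest mean, in mutant replicate 1, lacks RBCS1A and RCA. The part of these shifts in the results above was not tested, and in whole seedlings fewer cells of a type and less RNA per cell cannot be told apart.

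With all arrays, and with genes assigned to branches as here, the aliphatic and indolic branches had similar median differences. Of 25 tested aliphatic members 2 rose and 23 had differences above 0, with a median of 0.32. Of 9 indolic members 0 passed limma (2 at an unadjusted p under 0.05) and 6 had differences above 0, with a median of 0.30. Of the 7 members used by both, 1 rose and the median was 0.23. Over all genes tested 2.72% were called higher and 1.72% lower, and 23.6% had an unadjusted p under 0.05 in limma. The indolic counts are near those shares, and with so few genes the branches cannot be ranked by their calls. Blocked by replicate number, 6 members rose, 2 of them indolic, and 0 fell, against 6.74% of all genes in each direction. Blocked by slide, 5 rose and 0 fell, against 8.13% and 7.95%. The additional genes were CYP79F2, SOT16 and MYB51 with the replicate number and CYP79F2 and MYB28 with slide, so the uneven calls of the branches depend on the fit.

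Averaged over each branch per array, after removing the mean of each gene, the aliphatic mean was 0.14, -0.095, -0.55 and -0.24 in wild type and 0.20, 0.29, -0.007 and 0.26 in the mutant. The indolic mean was 0.073, 0.20, -0.37 and -0.57 in wild type and 0.33, 0.28, 0.13 and -0.070 in the mutant. Aliphatic minus indolic was -0.020 ± 0.28 in wild type and 0.020 ± 0.22 in the mutant (SD, n = 4 each), a shift of 0.039 that is well within the spread. Wild type replicate 3 had the lowest aliphatic mean and wild type replicate 4 the lowest indolic one. Relative to the median of all genes, the median differences of the aliphatic, indolic and shared members were 0.35, 0.33 and 0.26. Without wild type replicate 3 they were 0.17, 0.44 and 0.081, and without wild type replicate 2 they were 0.34, 0.63 and 0.45. The closeness of the aliphatic and indolic medians thus depends on single arrays.

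**Figure D3:**
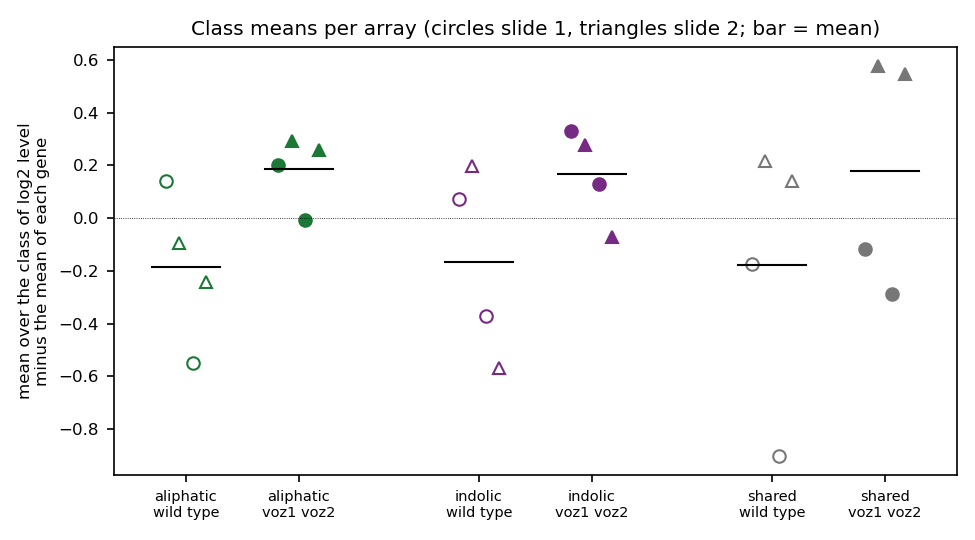
Mean over each class of the log2 level minus the gene's own mean over the 8 arrays (y axis), per array, for aliphatic, indolic and shared members, open symbols for wild type and filled ones for voz1 voz2, circles for slide 1 and triangles for slide 2, with the mean of 4 arrays as a bar. In each class the mutant mean lies above the wild type mean and single arrays overlap.

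The carriers GTR1 (AT3G47960) and GTR2 (AT5G62680), which load glucosinolates into the phloem, were not called between genotypes, and their levels differed widely by slide. GTR1 was at -0.57 and -0.92 on the wild type arrays of slide 1 and at -0.48 and -0.76 on the mutant ones. On slide 2 it was at 1.08 and 0.88 in wild type and at 1.31 and 1.22 in the mutant. Slide 2 was thus higher by 1.80, and the genotype difference was 0.20 (SE 0.64, 95% interval -1.26 to 1.67, adjusted p = 0.883). Between same-numbered arrays the mutant was higher in 4 of 4, by 0.092, 0.23, 0.16 and 0.34, and the adjusted p was 0.278 blocked by slide and 0.190 blocked by replicate number.

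GTR2 was at -0.90 and -2.03 in wild type and -1.29 and -1.27 in the mutant on slide 1, and at 0.81 and 0.15 in wild type and 0.22 and -0.016 in the mutant on slide 2. Slide 2 was higher by 1.66 without overlap, and the genotype difference was -0.095 (SE 0.64, adjusted p = 0.948). Among all genes tested, 2.08% had a slide difference at least as large as that of GTR1. GGP1 and CYP83B1, named after their values were seen, were higher on slide 2 by 1.39 and 1.37, the latter with overlap. CYP79B3 was lower there by 0.81 without overlap, from 2.32 to 1.5. In all, 6 members were higher and 3 lower on slide 2 with no overlap, against 12.9% and 12.4% of all genes. Slide goes with scan and with replicate number (1 and 3, or 2 and 4), which cannot be told apart, and each slide holds both genotypes equally.

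**Figure D4:**
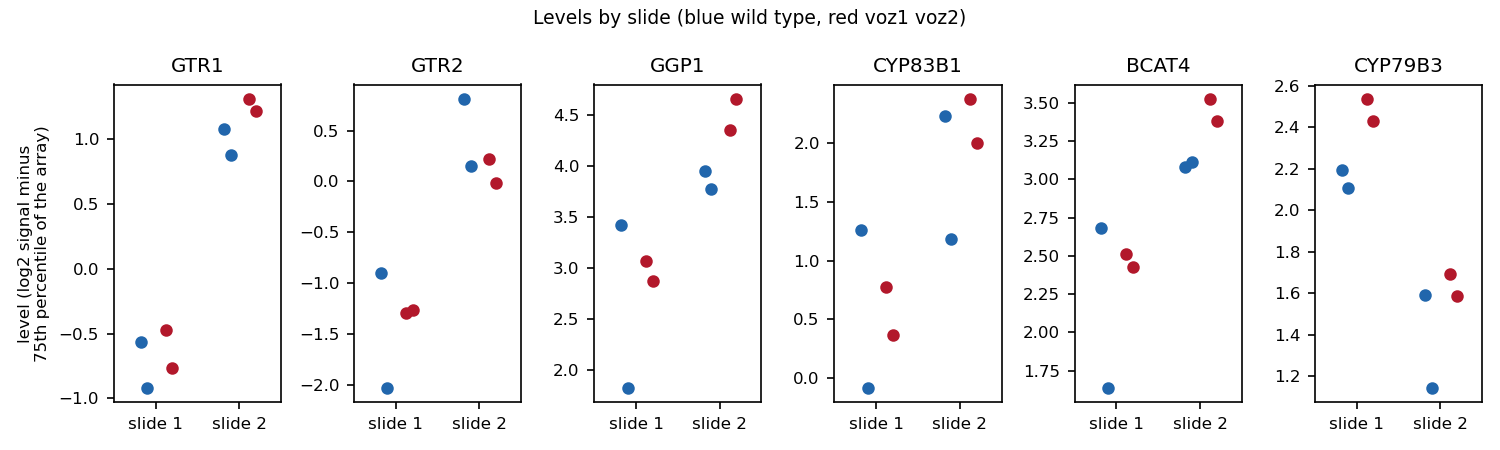
Level on each array (log2 signal minus the 75th percentile of the array, y axis, own range per panel) of 6 members by slide, wild type in blue and voz1 voz2 in red. GTR1, GTR2, GGP1 and BCAT4 are higher on every slide 2 array than on any slide 1 array, CYP79B3 is lower on every one, and CYP83B1 overlaps.

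Other genes of the pathway were followed from a list of 39, of which 38 were tested. BZO1 was well above background on 0 wild type and 3 mutant arrays and was left out. Of the 38 tested, 2 rose and 0 fell in limma, against 2.72% and 1.72% of all genes. An unadjusted p under 0.05 was found in 13 of 38, against 23.6% of all genes. Differences were above 0 in 21 of 38, with a median of 0.068, and in 8 the mutant values all lay above the wild type values, against 8.46% of all genes. ESP (AT1G54040) encodes the epithiospecifier protein, which diverts myrosinase products from isothiocyanates to nitriles. It was at 1.87, 1.40, 1.91 and 0.64 in wild type and 3.58, 2.83, 3.39 and 2.79 in the mutant. The groups did not overlap, and ESP rose by 1.69 (SE 0.32, adjusted p = 0.028), or 3.23-fold. Its call was lost without mutant replicate 1, 2 or 3 (adjusted p 0.061 to 0.081) and with no filter on dim probes (0.056).

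AT1G04770, which has no symbol in RefSeq, was at 2.02, 2.09, 1.78 and 1.29 in wild type and 3.13, 3.13, 3.07 and 2.88 in the mutant. It rose by 1.26 (SE 0.19, adjusted p = 0.013), or 2.39-fold, with tightly grouped mutant arrays, and its call held without any single array (adjusted p 0.017 to 0.0497). The sulfur deficiency gene SDI1, named after its value was seen, was at 0.61, 1.19, 0.89 and 0.12 in wild type and 2.22, 1.28, 1.54 and 3.71 in the mutant. The groups did not overlap but the mutant arrays spread widely (1.49, SE 0.51, adjusted p = 0.130). Of the genes without a call, GSTF10 (0.93, limma adjusted p = 0.060), CYP71A13 (-1.87, 0.073) and NIT3 (1.35, 0.080) came nearest. GSTF10 and NIT3 did not overlap between genotypes. CYP71A13 had the lowest difference of the 38, with overlap, and cleared background on 3 wild type and 2 mutant arrays. The bHLH factors MYC2, MYC3 and MYC4, which work with the MYBs, had -0.099, -0.22 and 0.46, and the nitrile specifier genes NSP1 to NSP5 lay between -1.0 and 0.47, none with a call. NSP4 had -0.18 by its brightest probe, and its dimmer probes, also well above background on every array, were not tested. They leaned higher in the mutant with overlap. The dimmest was at -4.51, -4.26, -6.24 and -6.73 in wild type and -4.07, -4.19, -3.26 and -4.67 in the mutant. The root myrosinase genes TGG4 and TGG5 had -0.46 and 0.086, and TGG4 was dim, clearing background on 3 wild type and 2 mutant arrays.

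**Figure D5:**
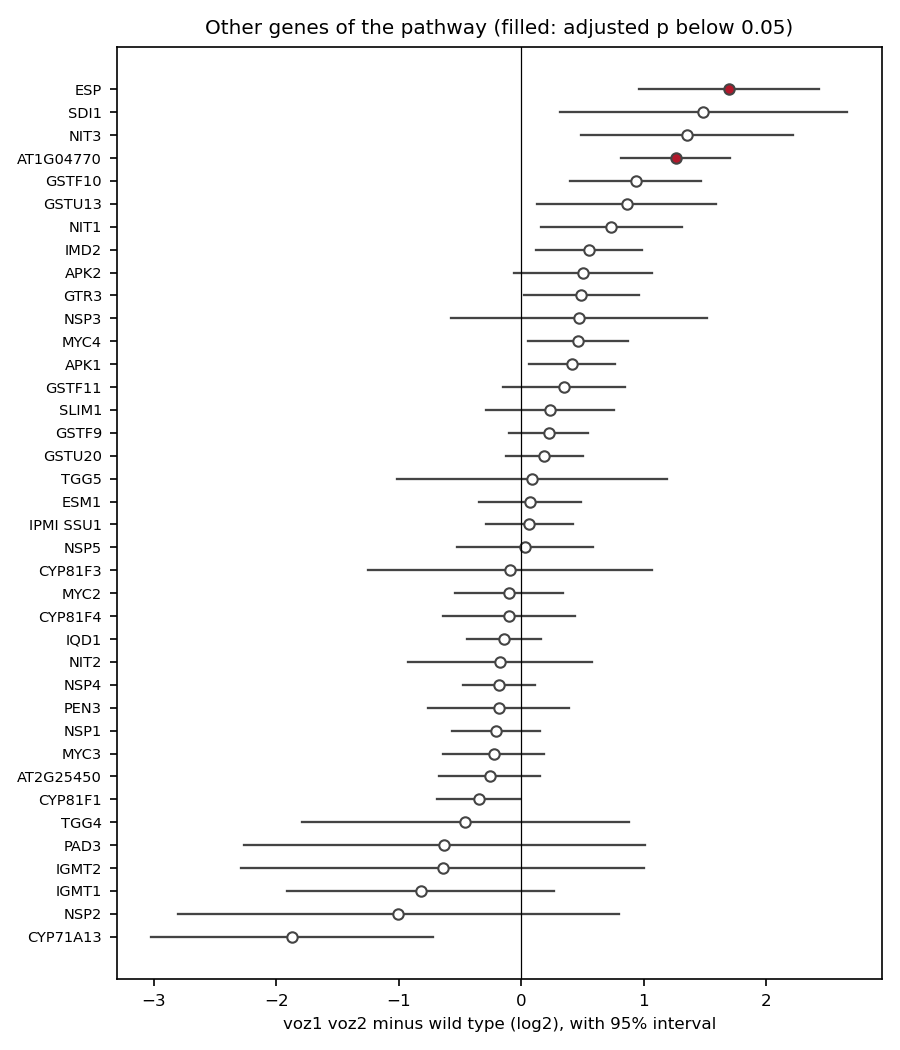
Difference between voz1 voz2 and wild type (log2, x axis) of the 38 tested genes of the wider pathway, sorted by value, with 95% intervals from limma. The 2 filled points, ESP and AT1G04770, passed an adjusted p of 0.05, and 21 of the 38 lie right of 0.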

How the data were processed

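Total RNA, 0.8 µg per array, was labelled with Cy3, per the labels' protocols. The scanner files hold intensity values per the file headers. The processed signal used here came from Agilent Feature Extraction 9.1.3.1, named in the submitters' processing notes, and its correction steps are not recorded there. The authors' series table was found to be on a natural log scale. Per array, 99.94% to 99.98% of its values equal ln of the processed signal less a constant, within 0.001. The constant was 6.42 for wild type and 6.91 for the mutant, which lowers mutant values by 0.71 on the log2 scale. No source used here gives the reason. That deposited table served as an alternative.

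Outlier spots (9 to 111 per array) were left out, and no spot was saturated. Spots of a probe were averaged on the log2 scale, and each array's 75th percentile was subtracted. A probe was kept if flagged well above background on 4 or more of 8 arrays, and the brightest kept probe stood for a locus. Of 37478 probes this left 24599 genes. Differences come from limma 3.58.1 (lmFit, eBayes) in R 4.3.3. Adjusted p-values are Benjamini-Hochberg values across every gene tested, and the script was tested on simulated data. The 8 arrays limit the precision. Symbols come from a RefSeq gene table.

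The members and lists were chosen with earlier results of these data known. Array values are given for called members, all MYB regulators and up to 3 further members per step by smallest p. Of the other pathway genes, those past the threshold are given array values, and some others are named with their differences. Outside this rule, the text gives array values of SDI1 and of an untested CYP79F1 probe, both chosen after values were seen. It also gives those of an untested NSP4 probe. Same-numbered arrays of the genotypes, by the titles, correlated in their deviations from the genotype means at 0.32, 0.51, 0.46 and 0.61. Arrays sharing only a slide correlated at 0.27 to 0.54, and arrays on different slides at -0.59 to -0.23. The values of same-numbered and of same-slide arrays overlap, so pairing by replicate number cannot be told apart from the shared slide. The alternatives were other scalings, normexp background correction (on the median signal, the mean not being in the files used), other filters, slide and replicate blocks, another assignment of genes to branches, each slide alone, each array left out, and the deposited table. Normexp with the 75th percentile was added after seeing the data.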

Additional observations from a re-analysis of the deposited data

Results flagged for a closer look

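In SUR1, the C-S lyase gene of the core pathway, wild type replicate 3 had a level of 2.06, while the other wild type arrays lay between 2.70 and 2.78. That gap made up 0.895 of the range of the 4 arrays. It was the 1 far value among 82 groups of 4 arrays checked over the 41 members, where chance gives about 1 group in 20.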

How the results depend on the processing

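Of the 3 members called higher, 1 was left with median scaling (1 aliphatic, 0 shared) and with no filter on dim probes (1 aliphatic, 0 shared). With normexp and the 75th percentile, in the deposited table and on slide 1 or slide 2 alone, 0 were left in the aliphatic and shared classes, MAM3 having 1.92 (adjusted p = 0.052), 1.58 (0.264), 2.14 (0.120) and 1.69 (0.234). Over all genes, 94, 70, 0 and 0 passed limma there, against 1091, with 4486 and 4031 on the single slides at an unadjusted p under 0.05. Normexp with quantile scaling gave 4 members (3 aliphatic) and 1208 genes, and no filter 514 genes. The replicate block gave 6 members (2 indolic) and 3314 genes, and the slide block 5 members (4 aliphatic) and 3955 genes, and neither ended a member's call. Leaving out 1 array gave 1 to 3 members (1 to 2 aliphatic, 0 to 1 shared), 387 to 1506 genes, and medians over that of all genes of 0.17 to 0.44 for all, 0.17 to 0.41 for aliphatic, 0.26 to 0.63 for indolic and 0.081 to 0.5 for shared members. Calls lower in the mutant stayed at 0 members throughout. Median scaling and the deposited table moved the median of all genes to -0.15 and -0.37. Relative to that median, 32 to 39 members lay above it under every alternative, though 14 were above 0 in the deposited table. The share of higher genes among calls was 61.2%, 79.8% with normexp and the 75th percentile, 42.9% in the deposited table, 50% and 50.5% with the replicate and slide blocks and 72.5% and 72.2% when wild type replicate 1 or 4 was left out. Moving the leucine synthesis genes and PEN2 to the shared class left the counts of calls per class unchanged. The medians over that of all genes were then 0.35 for aliphatic, 0.46 for indolic and 0.22 for shared members, against 0.35, 0.33 and 0.26.

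Signs turned only in members without a call. With the deposited values, 21 of 41 turned to below 0, among them MYB29 (-0.19), MYB76 (-0.26), BAT5 (-0.064), MAM1 (-0.014), IMD1 (-0.11), FMO GS-OX2 (-0.065), GTR1 (-0.14), CYP79F1 (-0.076), SOT18 (-0.0007) and CYP83B1 (-0.11). On slide 1, 5 turned, MYB29, MYB76, GTR2, CYP83B1 and IIL1, at -0.021, -0.17, 0.19, -0.017 and -0.0095, and on slide 2, 2 turned, MYB34 and AT2G31790, at 0.11 and 0.051. AT2G31790 had 0.029 with quantile scaling and 0.042 with normexp and quantile scaling, and IIL1 -0.055 with median scaling. MYB76 had -0.012 with quantile and -0.036 with median scaling, and -0.0014 and -0.006 with normexp. Without 1 array 1 to 5 members turned. AT2G31790 had 0.043 when wild type replicate 4 was left out and 0.056 when mutant replicate 3 was, and the ranges of the others that turned were -0.12 to 0.34 for MYB29, -0.25 to 0.38 for MYB76, -0.30 to 0.097 for MYB34, -0.14 to 0.57 for GTR1, -0.61 to 0.34 for GTR2 and -0.18 to 0.59 for CYP83B1. The cause was not tested.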
